A study of Homo sapiens with 2 samples.

Results

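The MYC, MAX and MXD network is a set of transcription factors of the basic helix-loop-helix leucine zipper class that act as dimers with MAX or with its relative MLX. The members were taken by gene symbol, with no threshold on measured values, as MYC, its partner MAX, the antagonists MXI1, MXD1, MXD3, MXD4, MNT and MGA, and the pair MLX and MLXIP. All 10 are among the 46427 genes listed, and all 10 passed the filter of at least 20 counts summed over both libraries that 13665 genes passed.

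A dimer of MYC and MAX binds DNA at the E-box CACGTG, recruits chromatin modifiers and elongation factors, and drives genes of ribosome production, polyamine synthesis, nucleotide synthesis and the cell cycle. The MXD proteins, MXI1 and MNT also pair with MAX, bind the same motif and bring SIN3 and histone deacetylases, while MGA brings MAX into a variant Polycomb complex. MLX pairs with MLXIP, also called MondoA, which enters the nucleus when glucose phosphates accumulate, and overactive MYC is common in natural killer cell malignancies.

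RNA was sequenced from NK92, an established human natural killer cell line, after exposure to PPMX-T003, an antibody that blocks transferrin receptor 1 (TfR1) and with it the uptake of transferrin-bound iron. The exposure lasted 6 h at 10 µg/mL, in Artemis-Medium 1 with 2% human serum, and the control was a sister dish without PPMX-T003 from the same culture, which had grown for 18 h beforehand. Poly(A) RNA of each dish gave 1 stranded library, with 46766416 counts in control and 43178462 with PPMX-T003. Each group is thus 1 library of 1 cell line, so no difference has a replicate check and no p-value is given.

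The control dish received no other antibody, so binding of any antibody and blocking of TfR1 cannot be told apart. In the deposited table the control column carries the name 0 h and the exposed column 6 h, although equal culture time is described for both dishes. The column named 0 h was taken as the control, and unequal time and exposure cannot be told apart. The cell type was checked against 14 natural killer cell genes, all of which passed the filter. Their summed level was 4715 CPM (counts relative to the scaled size of each library) in control and 5197 CPM with PPMX-T003. IL2RB had the highest CPM of them, which does not allow for transcript length. By the deposited TPM, which does, NKG7 was highest, at 3215 in control and 3445 with PPMX-T003, and IL2RB was at 669 and 696. Of these 14 genes, 8 were higher and 4 lower in the exposed library by the counting interval defined next, or 57.1% and 28.6%, against 21.8% and 23.9% of all tested genes. Their median log2 fold change was 0.091, and with the length and GC fit described further on removed it was 0.017, with 5 higher and 2 lower. The examples with bounds farthest from 0 were GZMB (0.27), TBX21 (0.25), GNLY (0.22) and NKG7 (0.16), which were at 0.21, 0.18, 0.12 and 0.031 with the fit removed. Where that fit used each gene's longest transcript they were at 0.16, 0.15, 0.062 and -0.0089. The 4 lower genes, named after their values were seen, were NCR1 (-0.21), CD2 (-0.14), KLRC1 (-0.089) and NCAM1 (-0.083). With the fit removed NCR1 (-0.28) and NCAM1 (-0.080) were lower, and CD2 (-0.069) and KLRC1 (0.0044) held 0. Where the fit used each gene's longest transcript, NCR1 (-0.27), CD2 (-0.15) and KLRC1 (-0.064) were lower and NCAM1 (-0.026) held 0. Apart from NCR1, these calls thus depended on the choice of transcript. Of 18 genes that mark other cell types, 11 had 0 counts in both libraries, among them the T cell genes CD3D and CD3G, where 0 counts allow a level of up to 0.0641 CPM in control and 0.0695 CPM with PPMX-T003. Their summed level was 33.0 CPM and 31.1 CPM, nearly all of it from TRAC, with 1501 and 1312 counts. Of the 3 that passed the filter, 0 had an interval outside 0 and the median was -0.091, whereas with the fit removed 1 was lower and the median was -0.22. TRAC was at -0.077 as measured and -0.090 with the fit removed, and both intervals held 0. It was at -0.16, lower beyond counting error, where the fit used the longest transcripts. CSF1R, a myeloid receptor gene, was the only gene past 2-fold among those of any list that passed the filter, with 22 counts in control and 9 with PPMX-T003 (log2 fold change -1.02, interval -2.48 to 0.0039). It was the 1 lower gene with the fit removed, at -1.13 (interval -2.58 to -0.10). Below the filter, the myeloid gene CD14 had 0 and 7 counts and CD4 had 4 and 0. Any part of these genes in the values that follow was not tested.

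Fold changes compare the exposed library with the control as log2 of the CPM ratio, to which a prior count of 2 was added. Each has a 95% Clopper-Pearson interval on the division of the gene's reads between the libraries, which covers counting error only and compares these libraries, not the conditions. A gene is called higher or lower in the exposed library where this interval lies above or below 0. Of the 10 members, 4 were higher (MYC, MXI1, MXD3 and MNT), against 21.8% of all tested genes, and 1 was lower (MGA), against 23.9%. The intervals of MAX, MXD1, MXD4, MLX and MLXIP held 0. At 2-fold either way 0 members were called, against 2.64% of tested genes. The median log2 fold change was 0.14 over the members and -0.0020 over all tested genes, or 0.062 and 0 with the deposited TPM. In bulk RNA, fewer cells of a kind and less RNA per cell cannot be told apart.

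**Figure D1:**
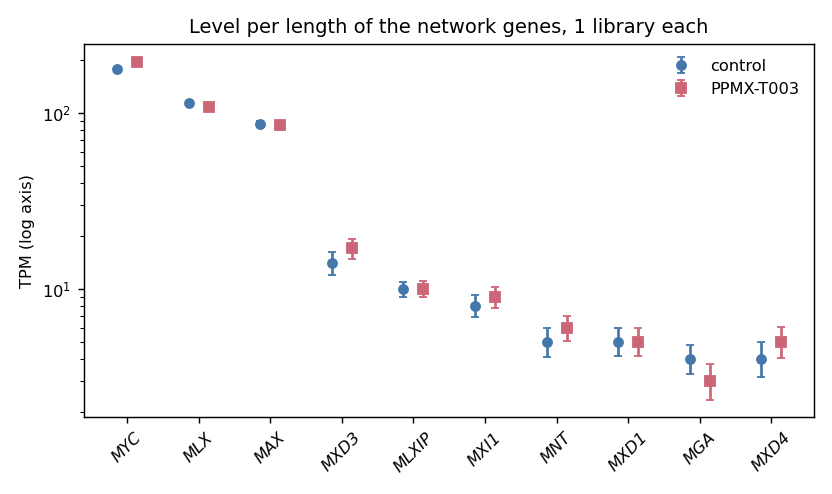
Deposited TPM of the 10 network genes on a log axis, in control (circles) and with PPMX-T003 (squares), 1 library each. Bars span rounding to whole numbers together with the 95% counting interval, and MYC, MLX and MAX lie well above the other 7 in both libraries.

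Levels can be compared between genes only per length, for which the deposited TPM, rounded to whole numbers, was used. MYC was the most abundant member, at 178 TPM in control and 194 TPM with PPMX-T003. MLX followed at 114 and 108 TPM and MAX at 87 and 86 TPM. These 3 genes, which encode the activator and both dimer hubs, made up 88.3% of the summed TPM of the members in control and 87.6% with PPMX-T003. MYC alone made up 41.5% and 43.8%. The antagonists were far lower, and their summed level was 40 TPM in control and 45 TPM with PPMX-T003. MXD3 led them at 14 and 17 TPM, ahead of MXI1 at 8 and 9 TPM, and MLXIP stood between them at 10 TPM in both libraries. MNT was at 5 and 6 TPM, MXD1 at 5 TPM in both, MXD4 at 4 and 5 TPM and MGA at 4 and 3 TPM.

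In the order by TPM, MYC, MLX, MAX and MXD3 each lay apart from the next gene in both libraries, by intervals that join rounding and counting error. MLXIP and MXI1 overlapped, and MXI1 lay apart from MNT. Below it, MNT, MXD1, MGA and MXD4 each overlapped the next in control. With PPMX-T003, MNT, MXD1 and MXD4 overlapped in turn, and MGA came last, apart from MXD4. With the deposited FPKM, MYC was again first in both libraries.

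MYC (NCBI Gene ID 4609) had 14303 counts in control and 14942 with PPMX-T003, or 306 and 346 CPM. The level was 13.3% higher in the exposed library, with a log2 fold change of 0.18 (interval 0.15 to 0.21). Because MYC is deeply covered, its interval is the narrowest of the members. Its fold change was higher than that of 96.9% of the 1000 tested genes nearest to it in level, whose central 95% ran from -0.28 to 0.19. MYC thus lay inside this range, near its upper end. The same holds for the other members, since 0 of 10 lay outside the range of their neighbours in level.

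MAX (4149), the obligate partner of MYC and of its antagonists, had 3701 and 3465 counts, or 79.1 CPM in control and 80.3 CPM with PPMX-T003. No difference was detectable at this depth, with a log2 fold change of 0.022 (interval -0.045 to 0.089). MLX (6945), the hub of the other branch, had 5641 and 5131 counts, or 121 and 119 CPM. Its log2 fold change was -0.019 (interval -0.074 to 0.035). MLXIP (22877), its glucose-responsive partner, had 1702 and 1557 counts, or 36.4 and 36.1 CPM, and a log2 fold change of -0.011 (interval -0.11 to 0.089). Of the exon bases of MLX, 18.1% lie opposite PSMC3IP, which had 1525 and 1623 counts. The share of neighbours in level that these genes exceeded was 62.8% for MAX, 49% for MLX and 49.3% for MLXIP, which is the middle of the distribution.

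Among the antagonists, MXD3 (83463, chr5:177305499-177312752) had the highest fold change of the members as measured, a rank it lost to MXD1 and MXI1 with the fit removed and kept where that fit used the longest transcripts. It had 309 counts in control and 380 with PPMX-T003, or 6.60 and 8.81 CPM. The level was 33.2% higher in the exposed library, with a log2 fold change of 0.41 and an interval of 0.20 to 0.64 that is wide because the gene is thinly covered. The protein is the family member tied to proliferating rather than differentiating cells. Its fold change exceeded that of 94.7% of genes of like level, whose central 95% ran from -0.46 to 0.50. In GENCODE annotation, 22.5% of the exon bases of MXD3 lie opposite PRELID1, which had 11429 and 11142 counts, and 18.0% are shared on the same strand with RAB24, which had 490 and 478. The library kit marks strand, but the strand setting of the counting is not given in the sources used here. Reads in the shared bases were divided by estimate, and their part in the difference was not tested.

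MXI1 (4601, chr10:110207605-110287365), also called MXD2, had 567 and 633 counts, or 12.1 CPM in control and 14.7 CPM with PPMX-T003. Its log2 fold change was 0.28 (interval 0.11 to 0.44), higher than that of 92% of genes of like level. MNT (4335), the antagonist that is expressed in proliferating and resting cells alike, had 561 and 601 counts, or 12.0 and 13.9 CPM. It was higher in the exposed library by 0.22 (interval 0.048 to 0.39), with a lower bound near 0, and 12.2% of its exon bases lie opposite a non-coding gene.

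MXD1 (4084), first described in differentiating cells, had 564 and 581 counts, or 12.1 and 13.5 CPM. Its log2 fold change of 0.16 had an interval from -0.0095 to 0.33, which just held 0. Of the exon bases of MXD1, 3.73% are shared on the same strand with SNRNP27, which had 3334 and 3040 counts. MXD4 (10608) had 356 and 358 counts, or 7.61 and 8.30 CPM, and a log2 fold change of 0.12 (interval -0.090 to 0.34). The counts of these genes limit what could be seen, since a difference of the size of that of MYC lies inside both intervals. Over the 4 genes MXI1, MXD1, MXD3 and MXD4 the median log2 fold change was 0.22, and each value was above 0 as measured.

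MGA (23269, chr15:41621224-41769940), the largest protein of the network and the scaffold of the Polycomb complex PRC1.6, was the 1 member lower in the exposed library. It had 1007 counts in control and 816 with PPMX-T003, or 21.5 and 18.9 CPM. The log2 fold change was -0.19 (interval -0.32 to -0.052), and 14.1% of genes of like level had a lower value. As measured, its direction was thus opposite to that of MNT, MXI1 and MXD3, but with the fit removed the intervals of MGA and MNT held 0. RefSeq lists 26 transcripts of MGA and 19 of MAX, against 1 to 9 for the other members, and which of them carried the reads was not analysed here.

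**Figure D2:**
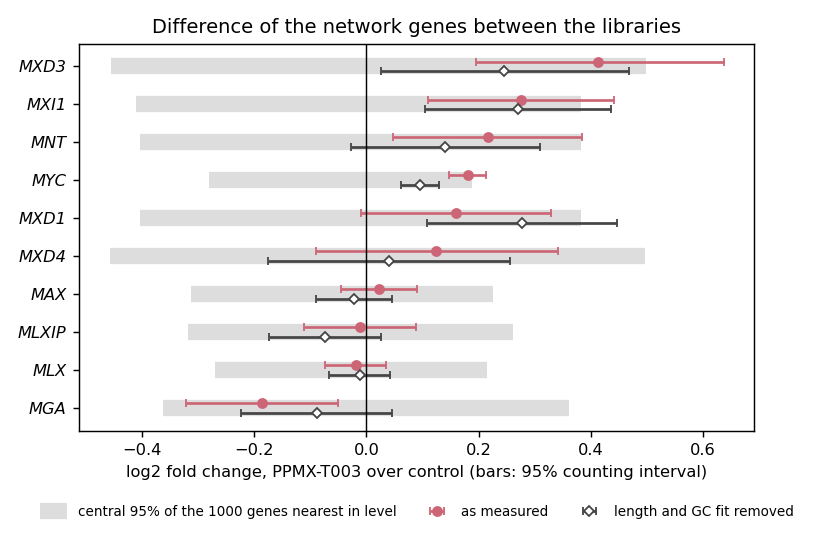
Log2 fold change of each network gene, PPMX-T003 over control, with its 95% counting interval, as measured (filled) and with the length and GC fit removed (open), over the central 95% of the 1000 genes nearest in level (grey). All 10 measured values lie inside the grey ranges, MYC closest to the upper end of its own.

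Fold changes in these libraries followed the GC content of the transcripts, and the members span much of its range. Genes with at least 200 counts were divided into 10 groups of equal size by GC content. The median log2 fold change was -0.073 in the group from 42.1% to 44.3%, where MXD1 and MGA (both 42.9%) lie, and 0.095 in that from 58.2% to 61.4%, where MYC (58.7%) and MNT (61.2%) lie. MXD3 has the highest GC content of the members, 67.3%, in the last group, whose median was 0.12. MXI1, at 47.8%, lies where the median was -0.031. The fold changes were therefore also given with a robust fit on length and GC content of the transcripts removed, and the counting interval moved with it.

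After this fit was removed, 4 members were higher, against 19.5% of the 12539 tested genes with a fitted value, and 0 were lower, against 20.4%, but the 4 were not the same genes as before. MXD1 joined MYC, MXI1 and MXD3, with a log2 fold change of 0.28 (interval 0.11 to 0.45). MNT left them, at 0.14 (interval -0.028 to 0.31). MGA was at -0.088 with an interval from -0.22 to 0.046, so that no member was then lower beyond counting error. MYC was at 0.096 (interval 0.063 to 0.13), nearer to 0 than as measured. MXD3 was at 0.24 (interval 0.027 to 0.47) and MXI1 at 0.27 (interval 0.10 to 0.44), which hardly differs from its value before. The median over the members was 0.068, against 0.0010 over all tested genes. When the fit used each gene's longest transcript, MYC was at 0.13, MXI1 at 0.33, MXD1 at 0.26, MXD3 at 0.34 and MGA at -0.013. The direction for MGA beyond the trend is therefore not given.

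**Figure D3:**
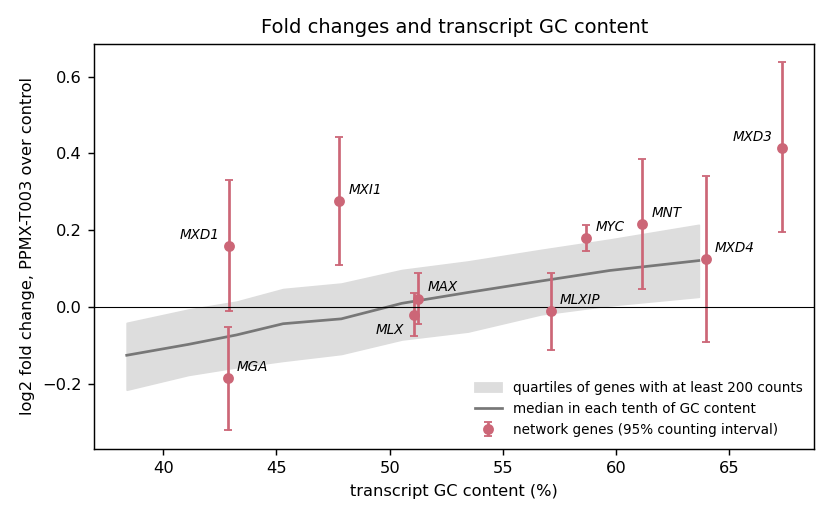
Log2 fold change of the network genes with 95% counting interval against the GC content of their transcripts in percent, over the median and quartiles of genes with at least 200 counts in 10 groups of GC content. MXD1, MXI1, MYC and MNT lie above the band of quartiles, MAX, MLX and MLXIP inside it and MGA below it, and MXD3 and MXD4 lie to the right of its end.

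The balance of MYC with its partner and its antagonists was read from ratios of counts inside each library, which do not depend on scaling. There were 3.86 reads of MYC for each read of MAX in control and 4.31 with PPMX-T003. The log2 of this ratio was higher in the exposed library by 0.16 (interval 0.084 to 0.23), and by 0.16 and 0.14 with the deposited FPKM and TPM. MYC was therefore higher relative to MAX beyond counting error in these libraries.

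Relative to the 6 antagonists together, MYC had 4.25 reads for each of theirs in control and 4.44 with PPMX-T003. The difference on the log2 scale was 0.061 (interval -0.016 to 0.14), and it was -0.057 (interval -0.16 to 0.041) against MXI1, MXD1, MXD3 and MXD4 alone. It was -0.046 with the deposited TPM of the 6 antagonists, so no direction is given for this ratio. The counts of the 6 antagonists summed to 3364 in control and 3369 with PPMX-T003.

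Within that sum, the reads of the antagonists stood in a different ratio to each other in the exposed library. For each read of MGA there were 1.78 reads of the 4 MXD genes in control and 2.39 with PPMX-T003. The log2 difference was 0.42 (interval 0.26 to 0.59), or 0.63 with the deposited TPM and 1.30 with the deposited FPKM. Rounding to whole numbers limits the last 2 values, since MGA was at 4 and 3 TPM and at 2 and 1 FPKM. The ratio of MYC to MGA was 14.2 in control and 18.3 with PPMX-T003, higher by 0.37 (interval 0.23 to 0.50). The ratio of MYC to MXD3 was 46.3 and 39.3, with a log2 difference of -0.24 (interval -0.45 to -0.016). The intervals for MYC against MXI1, MXD1, MXD4 and MNT held 0. Relative to MAX, the 4 MXD genes had 0.485 reads in control and 0.563 with PPMX-T003, higher by 0.22 (interval 0.10 to 0.33). In the branch of MLX, the ratio of MLX to MLXIP was 3.31 in control and 3.30 with PPMX-T003, a log2 difference of -0.0082. These ratios still carry the differences in length and GC content between the genes.

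With the fit removed from the counts of each gene in these ratios, a setting added after seeing the data, some of these calls were different. MYC relative to MAX was higher by 0.12 (interval 0.043 to 0.19) and relative to MGA by 0.18 (interval 0.047 to 0.32), and both intervals also lay above 0 where the fit used the longest transcripts. MYC relative to MXD3 was then at -0.15 (interval -0.37 to 0.068), which held 0, as it did at -0.22 with the longest transcripts. MYC relative to MXI1 was at -0.17 (interval -0.34 to -0.0080), below 0 with either choice of transcript. MYC relative to MXD1 was at -0.18 (interval -0.35 to -0.011), but held 0 at -0.13 with the longest transcripts. Which single antagonist MYC differed from thus depended on the fit, apart from MGA. Relative to the 6 antagonists together MYC was at -0.028 (interval -0.10 to 0.048), which held 0, and relative to the 4 MXD genes at -0.13 (interval -0.23 to -0.032), which lay below 0, unlike as measured. The 4 MXD genes were higher relative to MGA by 0.31 (interval 0.15 to 0.48) and relative to MAX by 0.25 (interval 0.13 to 0.36).

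**Figure D4:**
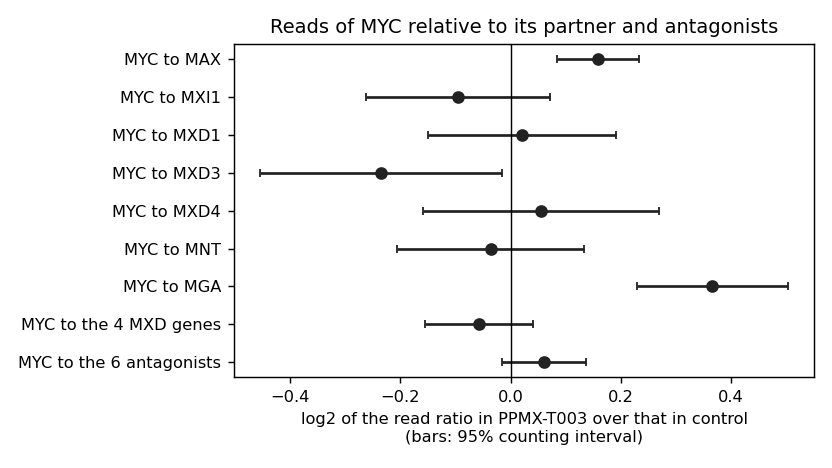
Log2 of the ratio of MYC reads to those of MAX, of each antagonist and of their sums, with PPMX-T003 minus control, with 95% counting intervals. As measured, the interval lies above 0 for MAX and MGA and below 0 for MXD3, and the other 6 hold 0.

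The network has further genes outside the 10 members, given in lists. Each list is set against all tested genes, of which 21.8% were higher and 23.9% lower as measured, with a median of -0.0020. With the fit removed these were 19.5% and 20.4%, with a median of 0.0010. MYCN and MYCL, the paralogs of MYC, and MLXIPL, the paralog of MLXIP, had 0 counts in both libraries. At the depth reached, 0 counts allow up to 0.0641 CPM in control and 0.0695 CPM with PPMX-T003, against 306 and 346 CPM for MYC.

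Of 17 cofactors through which MYC acts on chromatin and elongation, 5 were higher and 5 lower (29.4% each), and 7 intervals held 0. The median log2 fold change was -0.0018, and with the fit removed it was -0.019, with 4 higher and 6 lower. TRRAP, the scaffold of histone acetyltransferase complexes that MYC binds, had 10376 counts in control and 7876 with PPMX-T003 (log2 fold change -0.28, interval -0.32 to -0.24), and was at -0.22 once the fit was removed. CCNT1, the cyclin of the elongation kinase, was lower as well, at -0.23, and at -0.084 once the fit was removed. KAT5, the acetyltransferase of 1 such complex, was at 0.29 and RUVBL2, a helicase subunit, at 0.18. Once the fit was removed KAT5 was at 0.20 and RUVBL2 at 0.062.

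The stability of the MYC protein is set by ubiquitin ligases, kinases and phosphatases, of which 22 of 23 listed were tested. Of these, 5 were higher and 8 lower (22.7% and 36.4%), with a median of -0.052. With the fit removed 4 were higher and 8 lower, with a median of -0.0064, and the median was -0.12 with the deposited TPM. PIM2, a kinase that phosphorylates and stabilises MYC, had 1824 counts in control and 2527 with PPMX-T003, a log2 fold change of 0.59 (interval 0.50 to 0.68). It was the highest value of this list and was 0.54 after the fit was removed. Its paralog PIM1, named after its value was seen, had 15149 and 13144 counts and went the other way, at -0.088 (interval -0.12 to -0.054), and at -0.12 after the fit was removed. GSK3B, the kinase that marks MYC for degradation, was at -0.28 and HUWE1, a ubiquitin ligase, at -0.18, or -0.23 and -0.11 after the fit was removed. The ligase gene FBXO32 had 0 counts in both libraries.

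Of 19 subunits of the SIN3 and NCOR corepressor complexes, 4 were higher and 6 lower (21.1% and 31.6%) and 9 held 0, with a median of -0.027. With the fit removed 2 were higher and 6 lower, with a median of -0.025, and the median was -0.11 with the deposited TPM. NCOR1, which encodes a scaffold of the deacetylase HDAC3, was at -0.25 (interval -0.31 to -0.20), ARID4A at -0.25 and SUDS3 at -0.19, both subunits of the SIN3 complex. SAP18, another SIN3 subunit, was at 0.14. After the fit was removed NCOR1 was at -0.22, ARID4A at -0.095, SUDS3 at -0.091 and SAP18 at 0.21. ARID4A then held 0. The number of lower genes stayed at 6, but BRMS1L, ARID4A and ARID4B left them and SIN3A, SIN3B and ING1 joined, all but ARID4A named after their values were seen. For the genes that joined, this turned on the choice of transcript. SIN3A was at -0.092 with the fit removed but at 0.078 where the fit used the longest transcripts. ING1 was at -0.17 and -0.030, and SIN3B at -0.096 and -0.073, and both then held 0. BRMS1L, ARID4A and ARID4B held 0 with either choice. The deacetylases HDAC1 and HDAC2, also named after their values were seen, held 0 both as measured and with the fit removed. With the longest transcripts in the fit HDAC1 was at -0.015, whereas HDAC2 was at 0.19, above 0 beyond counting error.

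All 10 partners of MGA in PRC1.6 were tested, and 3 were higher and 6 lower (30% and 60%), with a median of -0.11, or -0.16 with the deposited TPM. YAF2 had 766 counts in control and 513 with PPMX-T003 (log2 fold change -0.46, interval -0.63 to -0.30), and its paralog RYBP was at -0.27. RING1, a ubiquitin ligase, was at 0.30 and L3MBTL2, a reader of histone methylation, at 0.28. The median GC content of these transcripts was 42.4%. After the fit was removed 3 were higher and 4 lower, with a median of -0.046. YAF2 was then at -0.34, RYBP at -0.13, RING1 at 0.20 and L3MBTL2 at 0.24.

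Of 49 textbook genes induced by MYC, 22 were higher and 12 lower, or 44.9% and 24.5%. The median log2 fold change was 0.024, but -0.017 with the deposited TPM, and 0.00063 after the fit was removed, when 15 were higher and 15 lower. Their summed level was 29557 CPM in control and 30022 CPM with PPMX-T003.

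The targets named here went both ways. ODC1, the rate-limiting enzyme of polyamine synthesis, had 29206 counts in control and 30656 with PPMX-T003, a log2 fold change of 0.19 (interval 0.16 to 0.21), and 0.20 after the fit was removed. AMD1, which supplies the aminopropyl donor of the same pathway, was at -0.19 as measured and at -0.052 after the fit was removed. PHB, which encodes prohibitin, was at 0.15, and at 0.085 after the fit was removed. TFRC, which encodes TfR1 and is induced by MYC, had 19063 and 18223 counts, with a log2 fold change of 0.052 (interval 0.023 to 0.082), and 0.17 after the fit was removed. SLC7A5, which encodes the amino acid transporter LAT1, had 8733 and 7634 counts and was at -0.077 (interval -0.12 to -0.032), and at -0.13 after the fit was removed. IREB2, which encodes an iron-responsive RNA-binding protein, was at -0.20 as measured and at -0.076 after the fit was removed.

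Of 12 textbook genes repressed by MYC, 8 were tested, of which 4 were higher and 1 was lower (50% and 12.5%), with a median of 0.072. The median was 0 with the deposited TPM and 0.044 after the fit was removed, when 3 were higher and 1 was lower, or 0.010 where the fit used the longest transcripts. NDRG1, a stress-responsive gene, had 160 counts in control and 209 with PPMX-T003 (log2 fold change 0.50, interval 0.20 to 0.81). GADD45B, a growth arrest gene, was at 0.25 and FTH1, which encodes ferritin heavy chain, at 0.15. CDKN1B, which encodes the cyclin-dependent kinase inhibitor p27, was the lower gene, at -0.16. After the fit was removed NDRG1 was at 0.38, GADD45B at 0.11, FTH1 at 0.077 and CDKN1B at -0.16. CDKN1C, CDKN2B and NDRG2 had 0 counts in both libraries, and CDKN1A had 0 and 2, too few for a fold change. With a filter of at least 1 summed count, which CDKN1A passes, the median over 9 genes was 0.11.

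Of 6 genes induced by MLXIP with MLX, 5 were tested, of which 3 were higher (60%) and 0 lower, with a median of 0.11, or 0.041 with the deposited TPM. TXNIP, the classical target and an inhibitor of glucose uptake, had 6799 counts in control and 7392 with PPMX-T003. Its log2 fold change was 0.24 (interval 0.19 to 0.29), while MLX and MLXIP themselves had intervals that held 0. ARRDC3, a relative of TXNIP, was at 0.14 and KLF10 at 0.11. After the fit was removed the median was 0.18 and 4 were higher, with TXNIP and ARRDC3 both at 0.29 and KLF10 at 0.18. ARRDC4 had 0 counts in both libraries.

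**Figure D5:**
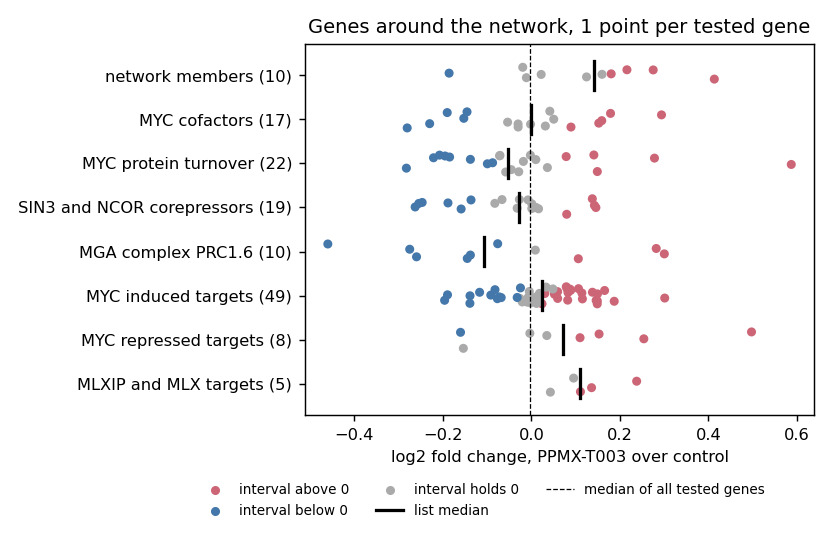
Log2 fold change of each tested gene of the network and of 7 lists around it, coloured by whether the 95% counting interval lies above, below or across 0, with the list median (black bar) and the median of all tested genes (dashed line). List medians run from -0.11 (PRC1.6) to 0.14 (network members), and that of the MYC induced targets is 0.024 here but -0.017 with the deposited TPM.

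The E-box was looked for in the RefSeq promoter windows of build GRCh38.p14, which span 250 bases before to 50 after the start of a gene. CACGTG is its own reverse complement, so a search of 1 strand covers both. It occurs in 2548 of 35116 windows (7.26%), which belong to 2396 of 27305 genes (8.77%), and in 12.7% of the tested genes with a window. Windows were found for 9 members, and 3 of them hold the motif, MXD4, MNT and MLX. MYC has no entry. In MXI1, MXD1, MXD3, MAX, MGA and MLXIP these letters are not in the windows. Of the 41 MYC induced targets with a window, 21 hold the motif (51.2%), and ODC1 and SLC7A5 are shown with the members because they are named above and lie on opposite sides of 0. The bases around the motif are given 5′ to 3′ on the strand of the gene, with the E-box in capitals. The stretches are chr4:2262322-2262359 (minus strand) for MXD4, chr17:2401228-2401273 (minus) for MNT, chr17:42567030-42567075 (plus) for MLX, chr2:10448016-10448061 (minus) for ODC1 and chr16:87869612-87869657 (minus) for SLC7A5.
MXD4: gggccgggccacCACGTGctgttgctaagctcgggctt
MNT: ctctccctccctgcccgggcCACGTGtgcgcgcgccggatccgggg
MLX: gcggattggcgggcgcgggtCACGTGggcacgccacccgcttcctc
ODC1: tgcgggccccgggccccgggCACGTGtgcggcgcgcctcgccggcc
SLC7A5: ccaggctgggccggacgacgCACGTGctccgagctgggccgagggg

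The first base of the motif lies 238 bases before the start of MXD4, 193 before that of MNT, 50 before that of MLX, 29 before that of ODC1 and 130 before that of SLC7A5. In each of the 5 stretches the flanks are rich in G and C. Of the members shown, MNT was higher in the exposed library as measured but held 0 with the fit removed. The intervals of MXD4 and MLX held 0. ODC1, which has a further copy of the motif 6 bases after its start, was higher and SLC7A5 lower.

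Across all tested genes with a window, 1290 hold the motif and 8867 do not. Their median log2 fold changes were 0.0050 and -0.0079, a difference of 0.013, which was -0.00075 after the fit was removed. Among genes with the motif 27.1% were higher and 26.7% lower in the exposed library, against 22.6% and 25.6% of those without it. Genes with the motif were also more abundant, with a median of 38.7 CPM against 29.9 CPM, and so more deeply counted. Among the MYC induced targets the median was 0.049 with the motif and 0.021 without it. A match is a description of the sequence, and binding of the network was not measured.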

How the data were processed

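The authors deposited, for each of 46427 genes and 2 libraries, read counts and, as a score, FPKM and TPM that they had rounded to whole numbers. For the steps the authors took, the submitters' processing notes name Trimmomatic 0.38, HISAT2 2.2.0, StringTie 2.1.3b and edgeR 3.17 with build hg38. The deposited counts from 1000 upwards are written with a comma between digits, which was removed. For this reason their unit was set down as a general one, whereas the design had assumed plain counts. The number of other columns of per-sample values was 0.

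Library sizes were scaled by TMM, a trimmed mean of log ratios (30% of ratios and 5% of levels trimmed). This was written in numpy 2.4.6 under Python 3.11.15, with scipy 1.17.1 for intervals, statsmodels 0.14.6 for the robust fit and pandas 2.3.3 for tables, without a count model. Both factors were 1.00. Genes with at least 20 summed counts were kept, the prior count was 2, and the steps were tested on simulated data. At least 1 count was found for 17690 genes in control and 17650 with PPMX-T003. Intervals of ratios use a normal approximation to the log odds ratio. Reads are not independent molecules, so intervals and floors (3 counts) cover counting error only.

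Transcript length and GC content are medians over GENCODE release 29 transcripts, known for 91.8% of tested genes, whereas the counts rest on RefSeq. The robust fit used 10156 genes with at least 200 counts. Promoter windows and gene coordinates are those of RefSeq. Plots were drawn with matplotlib 3.10.9.

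All members were named, and from each other list up to 4 genes with at least 100 counts whose interval bound nearest to 0 lay farthest from it, every gene past 2-fold, and TFRC, SLC7A5 and IREB2. The result of 1 gene that this rule takes is left out here. The lists were natural killer cell and other cell type markers, other network genes, MYC cofactors, MYC protein turnover, SIN3 and NCOR corepressors, MGA complex PRC1.6, MYC induced and repressed targets, MLXIP and MLX targets and other E-box factors. Members and lists were chosen with earlier results of these data known. Alternatives were other scalings, prior counts, count filters, the deposited TPM and FPKM, antagonists without MGA and MNT, E-box genes by count and promoter GC content, and removal of the fit.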

Additional observations from a re-analysis of the deposited data

How the results depend on the processing

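No paired analysis was possible because there is 1 library per group, and for the same reason no replicate could be left out. Under the 3 other scalings the member median lay between 0.13 and 0.15, and 4 or 5 members were higher and 1 lower. The number of members lower in the exposed library went from 1 to 0 with the length and GC fit removed, and to 0 with the longest transcripts in that fit. With the deposited TPM and a pseudocount of 1, the median log2 fold change was -0.12 for MYC protein turnover, -0.11 for the SIN3 and NCOR corepressors and -0.017 for the MYC induced targets, and that of the MYC cofactors was -0.051. The log2 difference of the ratio of MYC to its antagonists was -0.057 without MGA and MNT, -0.046 with the deposited TPM, -0.028 with the fit removed and -0.037 with the longest transcripts in it. The promoter E-box difference was -0.00075 with the fit removed. The longest transcripts, the TPM and the fit for the ratios and the fit for the E-box were added after seeing the data. Among single members, the interval of MXD1 lay above 0 with upper quartile scaling (0.17) and with the fit removed, in which MNT and MGA held 0. With TPM, MYC was at 0.12, MGA at -0.32 and MLX at -0.077. MXI1 was then at 0.15, MXD3 and MXD4 both at 0.26, and MXD1 at 0. Rounding to whole numbers limits these values in the low members. In control and with PPMX-T003, MGA was at 4 and 3 TPM, MXD4 at 4 and 5 TPM and MXD1 at 5 and 5 TPM. Members past 2-fold numbered 0 in every setting run. The cause of these shifts was not tested. Depth limits MXD1, MXD3, MXD4, MXI1 and MNT most, which had the fewest counts of the members.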

Other observations

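Other leucine zipper factors of the same class bind E-boxes outside the network, and 8 of 9 listed were tested. Of these, 4 were higher and 2 lower in the exposed library (50% and 25%), against 21.8% and 23.9% of all tested genes. After the length and GC fit was removed 1 was higher and 2 were lower, against 19.5% and 20.4%. The median log2 fold change was 0.057 as measured, 0.0017 with the fit removed and -0.011 where that fit used the longest transcripts. It was 0.11 over the 7 genes with at least 200 counts and 0 with the deposited TPM. TFEC, a relative of the lysosomal regulator TFEB, had 5046 counts in control and 3449 with PPMX-T003 (log2 fold change -0.43, interval -0.49 to -0.37). Its transcript has a GC content of 32.9%, and its value was -0.22 after the fit was removed. TFEB itself had 103 and 61 counts, a log2 fold change of -0.62 (interval -1.12 to -0.17), and -0.74 after the fit was removed. SREBF1, which drives lipid synthesis, had 196 and 258 counts (log2 fold change 0.51, interval 0.24 to 0.79), and 0.37 after the fit was removed. USF2, a ubiquitous E-box factor, was at 0.14, and at 0.018 with an interval that held 0 after the fit was removed. MITF had 0 counts in both libraries.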
